A study of Mus musculus with 12 samples.

Results

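Genes of blood and lymphatic vessels were followed across 5 normal mouse lungs and 7 mouse lung tumors, by poly-A RNA sequencing of bulk tissue. The set was a list of 38 named genes of endothelial subtypes and of angiogenesis, matched by symbol to the Ensembl identifiers of the table. Of these, 37 were found among 30399 listed genes, and Angpt2 was not analysed here. All 37 had a mean value of at least 1 and entered the test. The list was drawn up by name, not by measured values, although earlier results on these samples were known when it was chosen.

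The normal lungs are described by the labels only as normal lung, and the tumors only as tumor. Per the series title, the tumors belong to a mouse lung cancer model made by CRISPR/Cas9 mutagenesis without a virus. The labels give no strain, genotype, targeted gene, age, sex or time after treatment for either group, so what the groups share beyond species and assay is not known. Titles carry a number that tumors 3 and 4 share (159) and that tumors 5, 6 and 7 share (201), which leaves 4 distinct numbers among the 7 tumors. The word for trachea stands in the titles of tumors 1 and 7. Nothing in the labels says that samples came from separate animals, so p-values measure the spread between these samples, which may be partly technical.

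Endothelial cells line all vessels and hold together through cadherin and claudin junctions. Vascular endothelial growth factors (VEGFs) act on them through receptor tyrosine kinases, angiopoietins through the receptor Tek (Tie2), and the circulating bone morphogenetic proteins BMP9 and BMP10 through Acvrl1 (ALK1), Bmpr2 and the coreceptor Eng (endoglin). The capillaries of the lung hold aerocytes, which lie against the thin gas exchange surface and carry Car4, Ednrb and Apln, and general capillary cells, which carry Aplnr, Plvap and Gpihbp1. Alveolar type 1 cells of the lung epithelium are a known source of Vegfa for these capillaries. Growing tumors are known to draw vessels from the tissue around them.

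Values are normalized counts, meaning reads per gene divided by a size factor of the sample. They are not divided by gene length, so levels of different genes are compared only per kilobase of exon. Changes are log2 fold changes of tumor over normal lung on log2(value + 1), from limma with adjustment over all 23674 genes tested, and a gene is called at an adjusted p under 0.05. Depth ran from 11126432 to 24217633 reads in genes per sample, and 3 reads correspond to 1.90 to 4.85 normalized counts. Normal lung held the markers of alveolar type 2 cells at a sum of 191197 to 260269 normalized counts over 6 genes, against 739 to 3153 in tumors. Tumor 7 stood apart by heart muscle genes (33146 normalized counts over 5 genes, against 129 to 2121 in the other tumors) and by leukocyte genes (19304 over 6 genes, against 538 to 4921). Genes of the Y chromosome summed to 2765 to 3113 normalized counts over 4 genes in 4 of the 5 normal lungs, to 2536 in tumor 1 and to at most 8.08 in the other tumors and normal lung 3, so tissue and Y-linked expression are partly confounded.

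Promoter sequence is shown for 4 of these genes because the transcription factors Erg and Fli1, themselves in the set, belong to the ETS family that binds a GGAA core. Sequences are from RefSeq on GRCm38.p6, matched by symbol, and run 5′ to 3′ on the strand of the gene and end at its annotated start, or shortly before it for Emcn. Capitals mark AGGAAG or AACAGGAA on either strand. The longer motif is a composite of forkhead and ETS recognition letters, and it overlaps the shorter one where a G follows. Emcn lies at chr3:137340828-137341057 (+), Eng at chr2:32646345-32646594 (+), Flt1 at chr5:147726012-147726261 (-) and Cldn5 at chr16:18776597-18776846 (+).
Emcn: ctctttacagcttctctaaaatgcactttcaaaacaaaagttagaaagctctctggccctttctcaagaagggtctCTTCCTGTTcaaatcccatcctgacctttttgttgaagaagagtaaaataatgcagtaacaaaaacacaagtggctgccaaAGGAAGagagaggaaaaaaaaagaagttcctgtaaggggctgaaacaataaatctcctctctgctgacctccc
Eng: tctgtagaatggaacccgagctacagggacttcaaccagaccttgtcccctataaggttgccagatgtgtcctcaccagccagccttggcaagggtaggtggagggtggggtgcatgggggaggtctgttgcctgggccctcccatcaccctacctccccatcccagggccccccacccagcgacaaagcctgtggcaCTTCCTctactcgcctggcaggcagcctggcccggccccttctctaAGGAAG
Flt1: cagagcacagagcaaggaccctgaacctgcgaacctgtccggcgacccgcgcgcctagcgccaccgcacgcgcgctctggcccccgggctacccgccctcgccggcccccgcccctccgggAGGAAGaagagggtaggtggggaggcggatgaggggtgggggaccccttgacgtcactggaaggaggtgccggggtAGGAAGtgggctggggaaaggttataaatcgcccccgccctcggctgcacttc
Cldn5: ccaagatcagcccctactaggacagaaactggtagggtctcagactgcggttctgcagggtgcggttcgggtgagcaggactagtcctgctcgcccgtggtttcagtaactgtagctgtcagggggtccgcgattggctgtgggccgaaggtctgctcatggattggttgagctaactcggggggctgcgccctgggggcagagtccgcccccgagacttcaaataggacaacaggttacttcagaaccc
The table of promoters held 26 entries for 21 of the 37 genes. AGGAAG was found in 11 of the 26 (42.3%), against 29.5% of all 32851 promoters over the same length. AACAGGAA was found in 3 of the 26 (11.5%), those of Calcrl, Egfl7 and Emcn, against 2.25% of all promoters. In the shown sequences Emcn holds AGGAAG at 2 places and AACAGGAA at 1, Eng and Flt1 hold AGGAAG at 2 places each, and Cldn5 holds neither. A match describes letters only and shows no binding.

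Nearly the whole set was lower in tumors. Of the 37 genes, 35 were called lower in tumor, 0 were called higher, and 2, Fli1 and Vegfb, were not called. Over all genes tested, 30.1% were called lower and 31.4% higher. The median log2 fold change of the set was -4.18, against 0.04 over all genes tested. In 34 of the 37 genes every tumor lay below every normal lung, as in 18.4% of all genes tested, and the groups overlapped in Vwf, Fli1 and Vegfb. In 0 of the 37 did every tumor lie above every normal lung, against 20.1% of all genes tested. By edgeR with TMM factors on recovered reads 34 genes were called lower and 1, Vegfb, higher, and by DESeq2 35 were lower and 0 higher. At an unadjusted p under 0.05 limma also gave 0 higher. In bulk tissue fewer endothelial cells and less RNA per endothelial cell cannot be told apart.

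**Figure D1:**
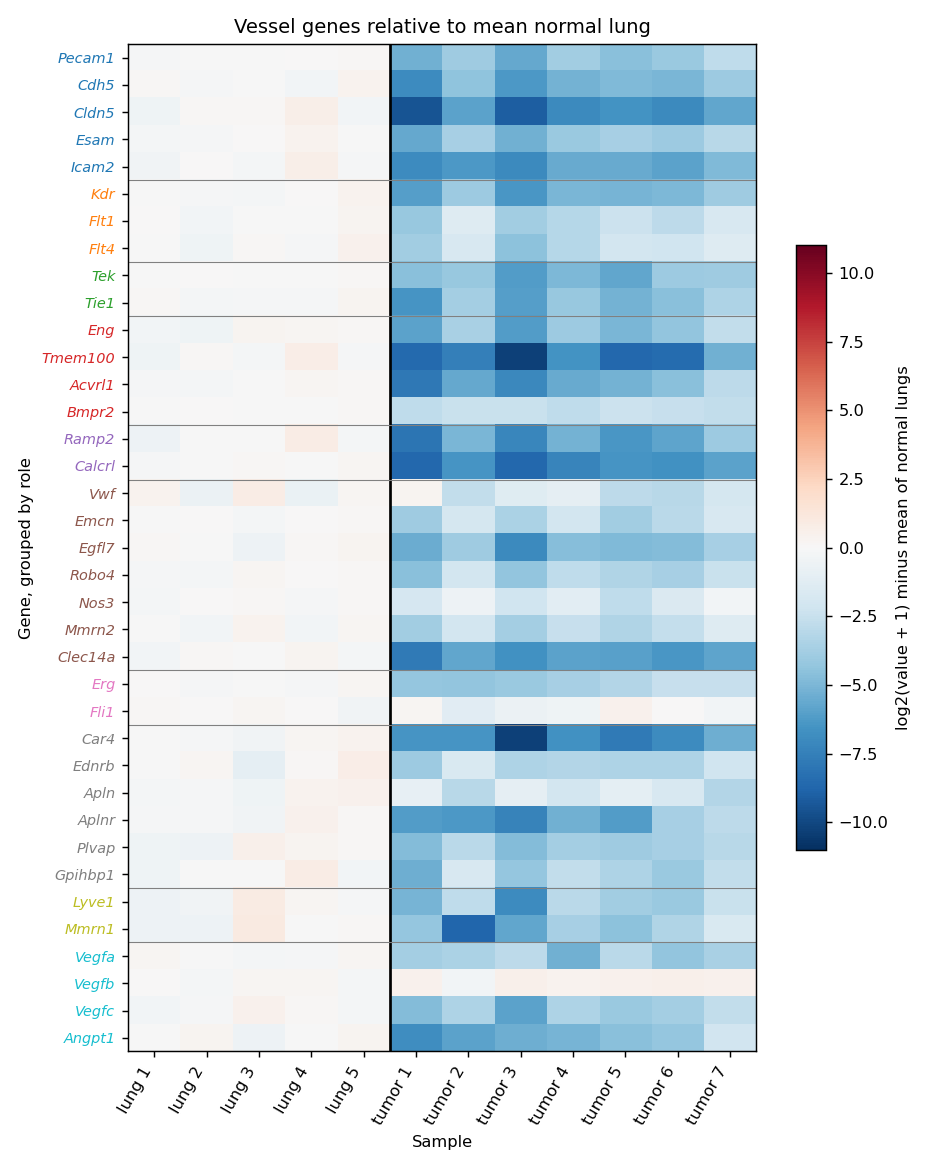
Heat map of 37 vessel genes (rows, grouped and coloured by role) in 5 normal lungs and 7 tumors (columns). Colour gives log2(value + 1) minus the mean of the normal lungs for that gene. All tumor columns are blue for most genes, palest in the rows of Fli1, Vegfb, Nos3 and Vwf.

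All 5 junction and adhesion genes were lower in tumors. Cdh5 (ENSMUSG00000031871), the cadherin of endothelial junctions, reached 16257, 14011, 14397, 12659 and 19969 normalized counts in normal lungs 1 to 5. In tumors 1 to 7 it had 123, 697, 185, 418, 518, 461 and 981. Tumors 1 and 3 were lowest and tumor 7 highest, and no tumor came near the lowest normal lung. Cdh5 changed by -5.26 (SE 0.43, adjusted p = 2.25e-07).

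Cldn5 (ENSMUSG00000041378), the claudin that seals endothelial tight junctions, had 12476, 18511, 18822, 26485 and 13967 normalized counts in the normal lungs and 23.4, 298, 30.7, 138, 177, 139 and 339 in tumors 1 to 7. Its change was -7.24 (SE 0.60, adjusted p = 3.07e-07), a 110.3-fold lower mean. Per kilobase Cldn5 was the highest gene of the set in normal lung, at 12749. Pecam1 (CD31), an adhesion molecule that leukocytes and platelets also carry, fell by 4.30 (SE 0.39), from 16912 ± 1096 (SD, n = 5) to 1039 ± 724 (SD, n = 7). The immunoglobulin-like Esam fell by 4.18 (SE 0.38), and Icam2, a ligand for leukocyte integrins, fell by 6.01 (SE 0.35).

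All 3 VEGF receptors were lower, with Kdr at the lowest share of its normal lung level (3.49%) and Flt1 and Flt4 at 17.4% and 19.1%. Kdr (VEGFR2, ENSMUSG00000062960), the main signalling receptor for Vegfa, had 6113, 5878, 5543, 6634 and 8160 normalized counts in the normal lungs and 96.9, 399, 74.4, 196, 179.6, 210.2 and 422 in tumors 1 to 7. Flt1 (VEGFR1, ENSMUSG00000029648), which binds Vegfa tightly and signals weakly, had 5506, 4331, 4973, 4975 and 6546 in the normal lungs and 289, 1913, 377, 586, 1024, 711 and 1530 in tumors. Tumors 2 and 7 were the highest for both genes, and for neither did the groups overlap. Kdr changed by -5.07 (SE 0.38, adjusted p = 1.19e-07) and Flt1 by -2.79 (SE 0.41, adjusted p = 5.67e-05).

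Within each sample the level of Flt1 per kilobase was 0.493 to 0.602 times that of Kdr in the 5 normal lungs and 1.99 to 3.81 times in the 7 tumors. This ratio was chosen after the values were seen and carries no test. Flt4 (VEGFR3), the receptor for Vegfc on lymphatic and sprouting endothelium, fell by 2.68 (SE 0.47, adjusted p = 2.63e-04), from 966 ± 219 (SD, n = 5) to 184 ± 115 (SD, n = 7). Its highest tumor values were 346 in tumor 7 and 284 in tumor 2, below the lowest normal lung at 701.

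**Figure D2:**
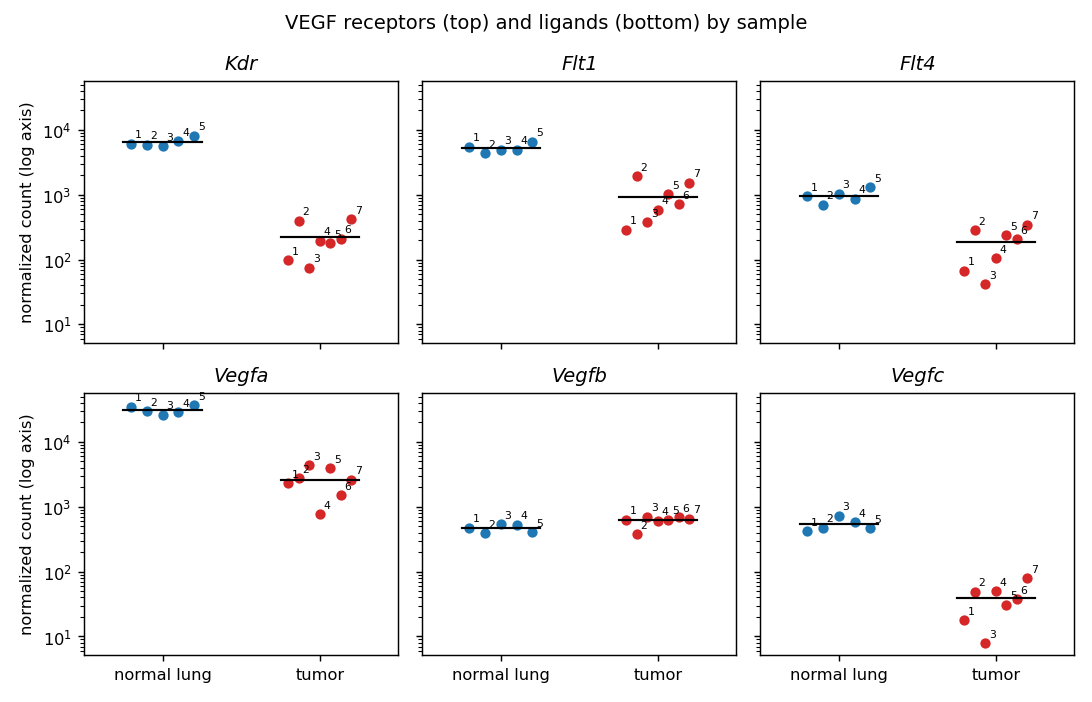
Normalized counts of VEGF receptors (Kdr, Flt1, Flt4) and ligands (Vegfa, Vegfb, Vegfc) on one shared log axis. Each point is a sample with its replicate number, and bars are group means. Vegfb is the panel in which tumors are not below normal lung, and the gap between groups is wider for Kdr than for Flt1 or Flt4.

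Of the 4 ligands 3 were lower in tumors and Vegfb was not called. Vegfa (ENSMUSG00000023951) had 35085, 29574, 26226, 28556 and 37085 normalized counts in the normal lungs and 2309, 2766, 4342, 774, 3913, 1494 and 2629 in tumors 1 to 7. Tumor 3 was the highest and tumor 4 the lowest of the tumors, an order unlike that of the receptors. Vegfa changed by -3.76 (SE 0.35, adjusted p = 9.03e-07). Per kilobase it was the highest gene of the set in tumors, at 608, against 7306 in normal lung.

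Vegfb (ENSMUSG00000024962), a ligand of Flt1 but not of Kdr, had 476, 394, 544, 530.4 and 409 normalized counts in the normal lungs and 635, 375, 699, 614, 632, 693 and 655 in tumors 1 to 7. Every tumor but tumor 2 lay above all normal lungs. Its change of 0.37 (SE 0.18, adjusted p = 0.0826) was not called, but was without tumor 2 (0.49, adjusted p = 0.00598), under equal totals (0.58) and in edgeR (0.44). Per kilobase Vegfa was 18.0 to 33.9 times Vegfb in the normal lungs and 0.472 to 2.76 times in tumors, a description made after the values were seen.

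Vegfc, the lymphatic growth factor, fell by 3.99 (SE 0.46, adjusted p = 6.16e-06), from 534 ± 124 (SD, n = 5) to 39.0 ± 23.6 (SD, n = 7). Angpt1 (ENSMUSG00000022309), the ligand that activates Tek and is made by cells around vessels, had 997 to 1755 normalized counts in the normal lungs and 11.4, 22.6, 34.7, 40.4, 59.9, 76.1 and 339 in tumors 1 to 7. Tumor 7 alone exceeded 100 among the tumors. The change of Angpt1, whose exons overlap Gm17473, was -4.87 (SE 0.61, adjusted p = 1.48e-05). Markers of alveolar type 1 cells fell beside the ligands, with all 6 of 6 called lower, against 30.1% of all genes tested. Their sum was 64340 to 118291 normalized counts in normal lung and 1640 to 3625 in tumors. None of these 6 was at 0 in any tumor, and their part in the fall of Vegfa was not tested.

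Tek and Tie1, the paired Tie receptors, fell together. Tek had 4362 to 4951 normalized counts in normal lungs, and 194, 262, 62.5, 153, 89.0, 286 and 312 in tumors 1 to 7. It changed by -4.76 (SE 0.36, adjusted p = 1.17e-07), and Tie1, an orphan receptor that modulates Tek, changed by -4.80 (SE 0.47, adjusted p = 1.56e-06). The receptor for adrenomedullin, built of the G-protein-coupled Calcrl and its partner Ramp2, was lower in both parts. Calcrl (ENSMUSG00000059588) had 13743 to 17701 normalized counts in the normal lungs and 36.7 to 263 in tumors, a change of -7.14 (SE 0.44, adjusted p = 1.96e-08) to a mean of 0.863% of that in normal lung. Ramp2 changed by -5.95 (SE 0.58, adjusted p = 1.26e-06).

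In the BMP9 pathway Bmpr2 and Tmem100 lay at opposite ends. Bmpr2 (ENSMUSG00000067336), the type 2 receptor, which many cell types express, had 10614, 11590, 10490, 11023 and 11879 normalized counts in the normal lungs and 1562, 1995, 2011, 1572, 2134, 1911 and 1727 in tumors 1 to 7. It had the lowest spread of the set among tumors (SD 0.18 log2 units) and changed by -2.60 (SE 0.12, adjusted p = 1.31e-09). Tmem100 (ENSMUSG00000069763), a membrane protein induced by Acvrl1 signalling, had 9843, 14789, 12071, 22305 and 12957 in the normal lungs and 35.5, 76.2, 9.91, 143, 34.0, 39.1 and 344 in tumors. Its change of -7.91 (SE 0.65, adjusted p = 2.74e-07) was the largest decrease of the 37 genes, to a mean of 0.676% of that in normal lung.

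Acvrl1, the BMP9 receptor, changed by -5.53 (SE 0.65), and tumor values ran from 60.1 in tumor 1 to 1996 in tumor 7, against 12600 to 17042 in normal lungs. Eng changed by -4.53 (SE 0.51). Of its 4048 exon bases 61 overlap those of Fpgs, so reads on these bases are uncertain without strand.

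Of the 2 ETS factors, Erg was lower and Fli1 did not pass the test. Erg had 2916 to 3778 normalized counts in the normal lungs and 168, 161, 193, 252, 353, 537 and 544 in tumors 1 to 7, a change of -3.51 (SE 0.31, adjusted p = 5.78e-07). Fli1 (ENSMUSG00000016087), which blood cells and some tumors also express, had 1916, 1882, 2069, 1824 and 1381 in the normal lungs and 2030, 739, 1178, 1323, 2424, 1869 and 1426 in tumors. The groups overlapped, with tumor 5 highest of all samples and tumor 2 lowest. Fli1 changed by -0.29 (SE 0.25, adjusted p = 0.339). Leukocyte genes summed to 538 to 19304 normalized counts in tumors and to 8572 to 16164 in normal lungs. Their part in the values of Fli1 was not tested.

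All 7 further surface and secreted genes were lower, from Clec14a to Nos3. Clec14a, a lectin-like receptor that binds the matrix protein Mmrn2, changed by -6.32 (SE 0.31, adjusted p = 2.56e-09) and Mmrn2 itself by -2.78 (SE 0.38). Egfl7, a secreted regulator of vessel tube formation whose exons overlap Gm20532, changed by -4.91 (SE 0.47), with 7.93 normalized counts in tumor 3. Robo4, a guidance receptor that stabilises vessels, changed by -3.29 (SE 0.40) and Emcn, a sialomucin of capillary and venous endothelium, by -2.82 (SE 0.39). Nos3, the endothelial nitric oxide synthase, was the lowest gene of the set per kilobase in normal lung (29.8) and had 17.0 to 101 normalized counts in tumors against 108 to 137 in normal lungs (change -1.47, SE 0.40, adjusted p = 0.00588). Its exons overlap those of Atg9b.

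Vwf (ENSMUSG00000001930), the von Willebrand factor of endothelial storage granules and of platelets, had 6942, 3342, 9569, 3221 and 6113 normalized counts in the normal lungs and 6522, 836, 2106, 2762, 730.5, 640.2 and 1395 in tumors 1 to 7. Tumor 1 lay inside the normal lung range and the other tumors lay below it. Vwf changed by -1.79 (SE 0.53, adjusted p = 0.00944), and this call was lost in edgeR (-1.34, adjusted p = 0.0732) and when Y-linked expression entered as covariate (-1.25, adjusted p = 0.143). In tumor 1 the ratio of Vwf to Cdh5 per kilobase was 13.8, against 0.0624 to 0.174 in the normal lungs and 0.314 to 2.97 in the other tumors. This ratio was not a planned comparison and carries no test. The 7 platelet markers summed to 184 normalized counts in tumor 1 and to 79.3 to 334 across tumors, against 799 to 5290 in normal lungs. Of these, 6 of 7 were called lower in tumor, against 30.1% of all genes tested, and 1, Gp1bb, higher. Gp1bb had 1.28 to 6.29 normalized counts in tumors. Of its 2087 exon bases 1902 overlap Sept5, which makes this count uncertain. Gp6, the collagen receptor of platelets, was at 0 in every tumor but tumor 6. The part of platelets in the values of Vwf was not tested.

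The capillary genes were all lower, by very different amounts. Car4 (ENSMUSG00000000805), the carbonic anhydrase of aerocytes, had 2346, 2195, 1807, 2809 and 3048 normalized counts in the normal lungs and 26.0, 26.2, 0.991, 23.3, 9.71, 18.9 and 57.6 in tumors 1 to 7. The value in tumor 3 is 1 read, under the 3-read floor of 2.97 there. Car4 changed by -7.13 (SE 0.63, adjusted p = 5.47e-07). Ednrb, the endothelin B receptor of the same cells, changed by -3.04 (SE 0.39), with 1040 to 3474 in the normal lungs and 128 to 658 in tumors.

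Apln (ENSMUSG00000037010), the apelin peptide of aerocytes and of sprouting tip cells, had 975, 1082, 825, 1519 and 1613 normalized counts in the normal lungs and 611, 142, 570.1, 292, 539, 340.3 and 127 in tumors 1 to 7. Tumors 1, 3 and 5 were highest, and tumors 2 and 7, where most receptors were highest, were lowest. Apln changed by -1.86 (SE 0.40, adjusted p = 0.00129). Its receptor Aplnr fell by 5.41 (SE 0.64, adjusted p = 8.08e-06), and reached 282 in tumor 7 and 162 in tumor 6 against 11.9 to 52.1 in the other tumors and 1596 to 2874 in normal lungs. Plvap, the diaphragm protein of fenestrated and tumor vessels, fell by 3.84 (SE 0.34, adjusted p = 5.75e-07), from 8482 ± 2836 (SD, n = 5) to 626 ± 296 (SD, n = 7). Gpihbp1, which holds lipoprotein lipase on capillaries, fell by 3.46 (SE 0.51), and was highest among tumors in tumor 2 (444).

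Lymphatic genes of the set were also lower. Lyve1, a hyaluronan receptor of lymphatic endothelium and some macrophages, had 2578 to 7321 normalized counts in the normal lungs and 30.7 to 690.4 in tumors, a change of -4.04 (SE 0.65, adjusted p = 1.20e-04). Mmrn1, a matrix protein of lymphatic endothelium and platelets, changed by -4.54 (SE 0.91, adjusted p = 7.26e-04), from 282 to 824 in normal lungs to between 0 in tumor 2 and 134 in tumor 7. A count of 0 in tumor 2 allows up to 3.57. Macrophage markers were lower in 4 of 6 genes, against 30.1% of all genes tested. Their sum of 870.5 to 19186 in tumors overlapped that of 5716 to 14555 in normal lungs. Their part in the values of Lyve1, like that of platelets in Mmrn1, was not tested.

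**Figure D3:**
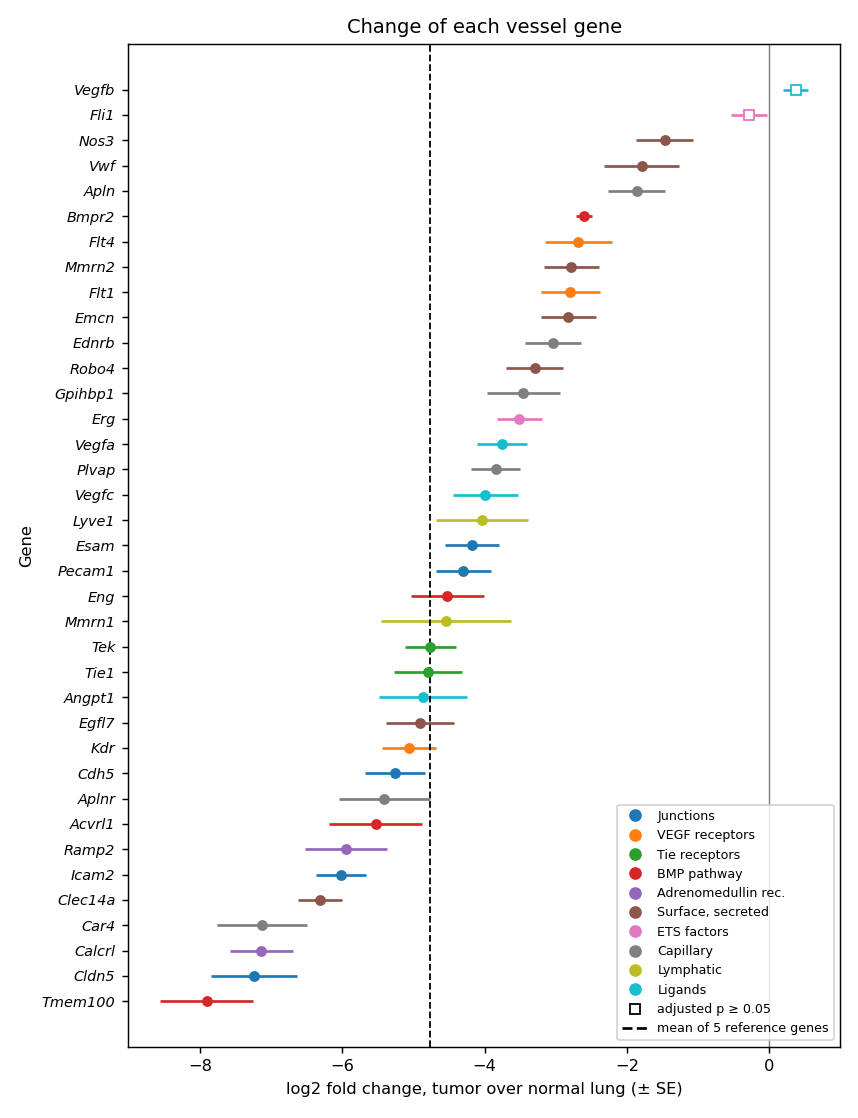
Log2 fold change of each of the 37 genes, tumor over normal lung, with its SE, sorted and coloured by role. Open squares (Vegfb and Fli1) were not called, and the dashed line marks the mean change of 5 reference genes, -4.77. Tmem100, Cldn5, Calcrl and Car4 lie farthest to the left of that line.

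To set tumor vessel genes against lung capillary genes, each gene was next measured relative to an endothelial reference, the mean log2 level of Cdh5, Tie1, Esam, Clec14a and Robo4 in the same sample. The reference was 12.22 to 12.45 in the normal lungs and 6.05, 8.42, 6.61, 7.91, 7.72, 7.61 and 8.62 in tumors 1 to 7. On a linear scale these tumor levels correspond to 1.28%, 6.64%, 1.90%, 4.66%, 4.11%, 3.80% and 7.63% of the mean of normal lungs. The reference genes did not fall equally, from -1.55 (Clec14a) to 1.47 (Robo4) around their own mean. Among tumors, tumor 7 held the highest value of 25 of the 37 genes, and tumors 1 and 3 the lowest value of 16 and 13.

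Of the 32 genes outside the reference, 6 fell further than it, 14 fell less or rose against it, and 12 did not pass the test. The same test over all genes called 0.566% lower and 93.4% higher than the reference, so a call higher than the reference was the usual outcome for a gene. The 6 that fell further were Tmem100 (-3.14 relative to the reference, SE 0.51, adjusted p = 4.33e-07), Cldn5 (-2.47, SE 0.46), Calcrl (-2.37, SE 0.44), Car4 (-2.36, SE 0.59, adjusted p = 2.88e-04), Icam2 (-1.25, SE 0.48, adjusted p = 0.0151) and Ramp2 (-1.18, SE 0.47, adjusted p = 0.0171). Icam2 and Ramp2, and Erg, Gpihbp1 and Plvap among the genes higher than the reference, lie within the range that the 5 reference genes themselves span. The 6 comprise 1 of the 6 capillary genes and both parts of the adrenomedullin receptor. With Cdh5 alone as reference Icam2 (-0.75, adjusted p = 0.184) and Ramp2 (-0.69, adjusted p = 0.212) were not called, nor were they without normal lung 4 (-1.11, adjusted p = 0.0619, and -0.99, adjusted p = 0.0803). With the Y-linked covariate Icam2 (-0.95, adjusted p = 0.131) and Car4 (-1.39, adjusted p = 0.0624) were lost.

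Genes that fell less than the reference included both remaining VEGF receptors, Flt1 (1.98 relative to it, SE 0.44, adjusted p = 6.03e-05) and Flt4 (2.09, SE 0.48, adjusted p = 1.10e-04), while Kdr was not called (-0.30, SE 0.44, adjusted p = 0.514). Vwf (2.98, SE 0.63), Nos3 (3.30, SE 0.57), Mmrn2 (1.99, SE 0.45), Emcn (1.94, SE 0.48), Bmpr2 (2.17, SE 0.48) and Erg (1.26, SE 0.48) also passed. So did 4 capillary genes, Apln (2.91, SE 0.60), Ednrb (1.73, SE 0.47), Gpihbp1 (1.31, SE 0.48) and Plvap (0.93, SE 0.44, adjusted p = 0.0439). Plvap was not called in 12 of the other settings, and Gpihbp1 was not called with the Y-linked covariate (1.19, adjusted p = 0.0586). Of the aerocyte genes, Car4 lay below the reference and Ednrb and Apln above it, where 93.4% of all genes tested were called. Fli1 (4.48, SE 0.52) and Vegfb (5.14, SE 0.51) were farthest above. The median relative change over all genes tested was 4.81. Fli1 and Vegfb thus lay near the usual level, and the other genes called higher lay below it.

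Not called either way were Pecam1, Tek, Eng, Acvrl1, Egfl7, Aplnr, Lyve1, Mmrn1, Vegfa, Vegfc, Angpt1 and Kdr. Acvrl1 (-0.76, adjusted p = 0.124) was called in 4 other settings (-1.10 to -0.92), among them without tumor 7 (-1.04, adjusted p = 0.0210). Vegfa (1.01, adjusted p = 0.0728) was called in 6 other settings (1.15 to 1.62), among them without tumor 4 (1.33, adjusted p = 0.0209) or tumor 7 (1.15, adjusted p = 0.0422), and Lyve1 (0.73, adjusted p = 0.151) without tumor 3 (1.05, adjusted p = 0.0242) and with Cdh5 alone as reference (1.22, adjusted p = 0.0307). Aplnr was called without trachea-titled tumors (-1.08, adjusted p = 0.0413), and Vegfc at a pseudocount of 10 (1.08, adjusted p = 0.0497) and with Cdh5 alone as reference (1.27, adjusted p = 0.0402).

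**Figure D4:**
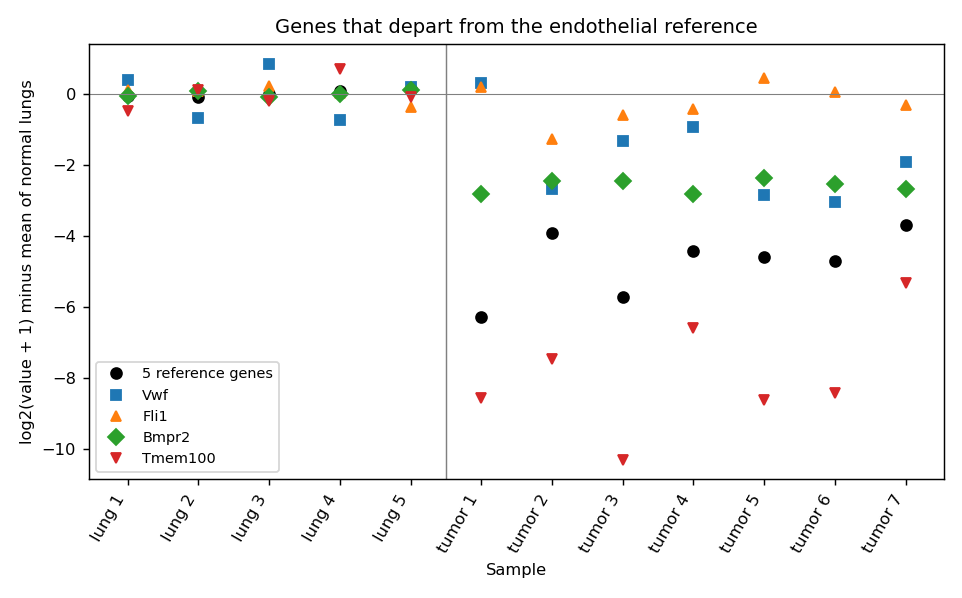
Level of 5 reference genes (black circles, mean) and of Vwf, Fli1, Bmpr2 and Tmem100 in each sample, as log2(value + 1) minus the mean of the normal lungs. In tumor 1 the reference is at its lowest, -6.29, while Vwf is near 0. Bmpr2 is nearly level across tumors and Tmem100 lies below the reference in all 7.

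Other vessel genes were taken from lists of endothelial, arterial, venous, lymphatic, sprouting and hypoxia genes, 77 of them in the table and outside the set. Of these 77, 56 were called lower and 5 higher in tumor, with a median log2 fold change of -2.70. Over all genes tested the shares called were 30.1% lower and 31.4% higher, which also stand beside each list that follows. All 15 further endothelial genes were lower, among them the transcription factors Sox7 (-6.13, SE 0.49) and Sox17 (-5.33, SE 0.48) and the membrane proteins Myct1 (-6.04) and Cyyr1 (-5.20). The 10 further genes chosen for lung capillaries and their surroundings were lower as well. Of these, Hpgd, which breaks down prostaglandins, changed by -8.39 (SE 0.93), with 0 in tumor 3, which allows up to 2.97 there, and from -9.34 to -7.05 over the other settings. Cyp4b1 changed by -7.49, Sema3c by -6.29 and Scn7a by -6.07. Epas1 (HIF2A), a transcription factor of the hypoxia response, fell by 5.79 (SE 0.39), from 53786 ± 8992 (SD, n = 5) to 1122 ± 628 (SD, n = 7).

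Arterial genes were lower in 8 of 8, with Gja4, a gap junction protein, at -4.85, Cxcl12 at -4.15, Efnb2 at -3.50 and Bmx at -3.31. The Notch ligand Dll4 changed by -0.88 (adjusted p = 0.0221). Dll4 was picked with its values in view, and its exons overlap Gm14207. Its tumor values of 411 to 1458 overlapped the normal lung values of 1304 to 2010. Of 8 venous genes 5 were lower and 1 was higher. Among the 5 were Vegfd (-3.43, SE 0.33) and Sele (-2.54, SE 0.69). Sele had 14.1 to 41.3 normalized counts in the normal lungs and 0 to 23.1 in tumors, and its call was lost in edgeR (-1.74, adjusted p = 0.0529). Slc6a2 fell by 5.83 (SE 0.35) and Ephb4, the venous receptor for ephrin-B2, by 3.48, while Nr2f2, a factor of venous identity (0.10, adjusted p = 0.844), was not called. Ackr1, a chemokine-binding protein of venules, was higher by 2.04 (SE 0.72, adjusted p = 0.0243), highest in tumor 1 (426 normalized counts), and both it and Nr2f2 were picked with their values in view. Exons of Ackr1 overlap Cadm3, which makes this count uncertain.

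Among 5 further lymphatic genes Prox1 (ENSMUSG00000010175), the master factor of lymphatic endothelium that neuroendocrine cells also express, had 98.0, 62.4, 197, 60.7 and 93.1 normalized counts in the normal lungs and 8079, 3426, 15773, 11559, 17143, 11814 and 4014 in tumors 1 to 7. Prox1, whose exons overlap the antisense Prox1os, rose by 6.55 (SE 0.43, adjusted p = 3.25e-08), with no overlap of groups, while Pdpn (-4.78), Sema3d (-2.75) and the members Lyve1 and Mmrn1 fell. The neuroendocrine markers Chga and Syp moved with Prox1. Chga had 3.23 to 10.3 normalized counts in the normal lungs and 11821 to 58490 in tumors, and Syp had 36.7 to 46.2 and 411 to 1066. Their part in the change of Prox1 was not tested, nor was that of alveolar type 1 cells in the fall of Pdpn. The scavenger receptor Stab2 was higher by 1.30 (SE 0.44, adjusted p = 0.0207). The call of Stab2 was lost with the Y-linked covariate (0.87, adjusted p = 0.227), without normal lung 4 (1.05, adjusted p = 0.0623) and when tumors of the same title number were averaged (1.18, adjusted p = 0.0509).

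Sprouting and tip cell genes, Apln and Dll4 among them, were lower in 9 of 13 and higher in 0, with a median change of -0.96. Pdgfb, the endothelial signal that recruits pericytes, fell by 5.10 (SE 0.67), and Mcam by 2.27 (SE 0.26), Sparc by 2.61 and the laminin subunit Lama4 by 2.64. Of 8 hypoxia targets 1 was lower, P4ha1 (SE 0.25, adjusted p = 0.0038, mean 53.4% of that in normal lung), and 2 were higher, Egln3 (2.71, SE 0.44) and Ndrg1 (1.10, SE 0.30). Over all genes tested 30.1% were called lower and 31.4% higher. Vegfa, a hypoxia target too, was lower. Of 12 VEGF coreceptors, modulators and regulators 7 were lower, among them Nrp1, the coreceptor for Vegfa (-3.44, SE 0.41), Efna1 (-4.70) and Sema3a (-4.39), and 0 were higher.

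Pericytes, the mural cells that wrap capillaries, gave a mixed picture, with 5 of 8 markers lower and 1, Rgs5, higher. The summed level of the 8 was 4505 to 9146 normalized counts in the normal lungs and 2795 to 9504 in tumors. Rgs5, a regulator of G-protein signalling in pericytes that was picked with its values in view, had 195 to 787 in the normal lungs and 1828 to 6795 in tumors (change 3.59, SE 0.41, adjusted p = 5.61e-06). Pdgfrb, the receptor for Pdgfb, fell by 1.68 (SE 0.38). Fibroblast markers were lower in 1 of 6 and not called in 5. Of all genes tested, 30.1% were called lower and 31.4% higher. Heart muscle markers were not called in any of 5, and without tumor 7, which holds most of their reads, 35 of the 37 vessel genes were still lower.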

How the data were processed

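Poly-A RNA of 5 normal lungs and 7 tumors was sequenced as paired reads, per the labels' protocols. The authors deposited a normalized count signal per gene. The submitters' processing notes name featureCounts, DESeq2 and GRCm39, without saying what each was used for. Versions, aligner, annotation and use of strand are not given in the sources used here. In all 12 columns 100% of values were whole multiples of the smallest (tolerance 0.01 read), which gave reads in genes. The count tests used the 11 samples whose recovered reads passed a check of the columns, leaving out tumor 3. Symbols and exon lengths came from GENCODE M21 (GRCm38).

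Limma 3.58.1 (lmFit, eBayes with trend, R 4.3.3) was fitted to log2(value + 1) of all genes whose mean reached 1, with Benjamini-Hochberg adjustment over all of them. A further fit subtracted the mean log2 level of 5 reference genes per sample. Alternatives were pseudocounts, filters, quantile and equal-total scaling, edgeR 4.0.16, DESeq2 1.42.0, tumors of the same title number averaged or correlated, no trachea-titled tumors, a Y-linked covariate, other references, and leaving out each sample. The limma fit was also run on simulated counts of equal spread in both groups. Members spread more among tumors than among normal lungs here, so that run cannot judge the fit on these data. All members are named, with up to 4 called genes of largest change per wider list and some others, in part picked with their values in view. The members, lists and promoters shown were chosen with earlier results of these data known. Python 3.11.15 drew figures.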

Additional observations from a re-analysis of the deposited data

Results flagged for a closer look

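Each of the 37 members and 31 further named genes was checked for a sample far from the others of its group, in 136 comparisons, of which 3 passed Dixon's test at its 95% critical value and chance would give about 6.8. Vegfb in tumor 2 was the lowest of the tumors, at a log2 value of 8.56 against 9.27 for the next. Cyp4b1 in tumor 3 was the lowest, at 0.99 against 4.63, which is a single read and under the floor. P4ha1 in normal lung 4 was the highest of the normal lungs, at 10.53 against 10.21.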

How the results depend on the processing

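The 35 members lower in tumor stayed at 34 to 35 under all alternatives, and at 35 with each sample left out in turn. The number higher, 0, was 1 (Vegfb) under equal totals and in edgeR, and 0 to 1 with a sample left out. Equal totals moved the median change of all genes from 0.04 to 0.24. Relative to the reference 4 to 8 members were lower and 13 to 17 higher. The counted genes were the same in every setting. Under the reference of Pecam1, Cldn5, Egfl7, Emcn and Erg they include these genes, each tested against a mean that holds it. In the wider lists the 56 genes lower ran from 51 to 60 over all settings, and the 5 genes higher from 3 to 7. The number higher was 3 with the Y-linked covariate, and 3 to 6 with a sample left out. Relative changes close to 0, none of them called, turned sign. With Cdh5 alone as reference Kdr became 0.19, Egfl7 0.35 and Angpt1 0.39. Tek became -0.056 under quantile scaling, -0.30 without trachea-titled tumors and -0.21 with the reference of Pecam1, Cldn5, Egfl7, Emcn and Erg. A pseudocount of 10 gave 0.13 for Egfl7 and 0.13 for Angpt1, and the Y-linked covariate 0.40 for Egfl7. Mmrn1 became -0.29 at a pseudocount of 0.1, -0.30 with tumors of a shared title number averaged and -0.51 without trachea-titled tumors. With a sample left out Tek ran from -0.28 to 0.19, Egfl7 from -0.30 to 0.051, Angpt1 from -0.39 to 0.22 and Mmrn1 from -0.083 to 1.06. The cause was not tested. Values under the 3-read floor limit, among others, Car4, Hpgd, Cyp4b1, Sema3d and Bmx in tumor 3, Mmrn1 in tumor 2, and Gp6 and Gp1bb. They also limit Gja5 in tumors 1 to 4 and Sele in tumors 1, 3 and 4. No paired analysis was possible because the labels give no number shared by a normal lung and a tumor.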
